A study of Mus musculus with 6 samples.

Results

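The miR-148 and miR-152 family, the 3 microRNAs miR-148a-3p, miR-148b-3p and miR-152-3p, was described in extracellular vesicles of mouse bone. MicroRNAs are short RNAs that guide silencing of messenger RNAs, and extracellular vesicles are membrane-bound particles released by cells. The members were chosen by name as the guide strands of a common seed, and also from their measured values, because the library of large vesicles replicate 1 differed from the other large-vesicle libraries in its counts of them. That gap is therefore given as a description, with no test. All 3 members were found among the 1927 microRNAs of the count table, and all 3 passed the filter on low counts that left 145 for testing, with no member under 20 counts in any library. The vesicles were set free by crushing tibias and femurs whose ends had been cut off and whose marrow had been spun out. The mice were untreated Swiss-CD1 males, 8 weeks old. Small vesicles (sEVs) were collected at 100000 g on a cushion of 30% sucrose, and large vesicles (lEVs) were the pellet of a spin at 10000 g, with 3 libraries of each. Spin and cushion differ together with vesicle size, and their parts cannot be told apart. Nothing in the labels tells if the replicates were prepared from different mice. The p-values below therefore measure the spread between these libraries alone, which may be technical.

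A microRNA finds its targets mainly through its seed, the bases 2 to 8 from its 5′ end, so the members of a seed family can pair with largely the same messenger RNAs. The miR-148 family is known for silencing Dnmt1, the enzyme that maintains DNA methylation, in human and mouse cells. miR-148a is the abundant member in liver, where it limits the LDL receptor, and in B lymphocytes it takes part in immune tolerance. In human monocytes miR-148a favours formation of osteoclasts, the cells that resorb bone, and in human mesenchymal stem cells miR-148b favours bone formation.

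The mature sequences show how little separates the members, and they are printed 5′ to 3′ from RefSeq (GRCm38.p6) with the seed in capitals.
miR-148a-3p: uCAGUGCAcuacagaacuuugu
miR-148b-3p: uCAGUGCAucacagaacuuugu
miR-152-3p: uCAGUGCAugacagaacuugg
Counted from 1 at the 5′ end, with the first-named member's base first, miR-148b-3p differs from miR-148a-3p at C9U and U10C, so that 20 of 22 positions are identical. miR-152-3p, of 21 bases, differs from miR-148a-3p at C9U, U10G and U20G (18 of 21 identical) and from miR-148b-3p at C10G and U20G (19 of 21 identical). The seed was thus the same in all 3, and the differences lay just behind it and near the 3′ end. Among 1738 mature mouse sequences searched, no other held this seed at bases 2 to 8. Each of the 3 mature sequences occurred in 1 of 1005 hairpins searched. No source used here says how reads with mismatches were assigned between such close relatives.

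The same 7 bases stand 1 position earlier, at bases 1 to 7, in the miR-130 and miR-301 family. That family had counts in these libraries, and members of it are printed here with those bases in capitals.
miR-130a-3p: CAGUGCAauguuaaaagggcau
miR-301a-3p: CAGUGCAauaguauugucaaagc
These bases opened 7 of the sequences searched: miR-130a-3p, miR-130b-3p and miR-301a-3p, with 159, 10 and 61 counts over the 6 libraries, and miR-130c, miR-6341, miR-6389 and miR-721, each listed at 0. The sequence of miR-301b-3p was not among those searched, so its first bases were not compared. All 4 listed members of the miR-130 and miR-301 family were far below miR-148a-3p and miR-152-3p in counts, and miR-130b-3p and miR-301b-3p had counts in 2 libraries each.

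The 3 members come from 3 chromosomes (GRCm38). The Mir148a hairpin lies at chr6:51269812-51269910 on the minus strand and overlaps no other gene in GENCODE M21; its nearest coding gene, Nfe2l3, is 162760 bases away. Mir148b, at chr15:103285125-103285221, lies in an intron of Copz1, and Mir152, at chr11:96850393-96850465, in an intron of Copz2, both on the plus strand like their hosts. Copz1 and Copz2 are paralogs that encode the zeta subunit of the coatomer, the coat of vesicles of the early secretory pathway. Nearly all counts of each hairpin were of the 3p arm, the guide strand. Over the 3 libraries of a fraction, miR-148a-3p had 3018 counts in sEVs and 3352 in lEVs, against 8 and 0 of miR-148a-5p. miR-148b-3p had 133 counts in sEVs and 174 in lEVs, against 0 and 8 of miR-148b-5p. miR-152-3p had 1487 counts in sEVs and 1188 in lEVs, against 5 and 10 of miR-152-5p. None of the 5p arms passed the filter, so their difference between fractions was not tested.

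In the order of replicates 1 to 3, which all lists of values below follow, the depth was 75486, 99314 and 114331 counts for sEVs, and 47441, 92502 and 86637 counts for lEVs. Levels are given as shares of library counts, with exact Clopper-Pearson intervals of 95% that cover counting error only, and as CPM, which puts libraries of unequal depth on the same scale, with TMM factors, which align the libraries on most of their microRNAs. The mature sequences differ in length by 1 base at most, so counts were set side by side without a length correction. By mean CPM over the 6 libraries miR-148a-3p ranked 14, miR-152-3p 30 and miR-148b-3p 73 among the 145 tested microRNAs.

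miR-148a-3p, the most abundant member, made up 0.886% (0.821 to 0.956), 1.16% (1.09 to 1.23) and 1.05% (0.990 to 1.11) of the counts in sEVs. In lEVs it made up 2.28% (2.15 to 2.42), 1.20% (1.13 to 1.27) and 1.34% (1.26 to 1.42). The 3 lEVs shares were above the 3 sEVs shares, but lEVs replicates 2 and 3 lay close to the highest sEVs library, and lEVs replicate 1 stood far above every other library. In CPM with TMM factors the fractions overlapped, at 10724 ± 1463 CPM in sEVs, against 16292 ± 9071 CPM in lEVs (± is the SD over 3 libraries here and below). The spread in lEVs came with raw counts that were nearly equal in its 3 libraries, 1081, 1111 and 1160, while the library totals differed.

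miR-148b-3p, the least abundant member, was counted 20, 55 and 58 times in sEVs, which were shares of 0.0265% (0.0162 to 0.0409), 0.0554% (0.0417 to 0.0721) and 0.0507% (0.0385 to 0.0656). In lEVs it was counted 30, 86 and 58 times, or 0.0632% (0.0427 to 0.0903), 0.0930% (0.0744 to 0.115) and 0.0669% (0.0508 to 0.0865). All 3 lEVs libraries were above all 3 sEVs libraries, by shares and by CPM with TMM factors (460 ± 162 CPM in sEVs, against 709.6 ± 98.9 CPM in lEVs; n = 3 each). The intervals of the highest sEVs and the lowest lEVs library overlapped, so at these counts their order was not resolved.

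miR-152-3p had the steadiest level. Its shares were 0.538% (0.487 to 0.593), 0.513% (0.469 to 0.559) and 0.5003% (0.460 to 0.543) in sEVs, against 0.369% (0.316 to 0.428), 0.576% (0.528 to 0.627) and 0.554% (0.506 to 0.606) in lEVs. By shares lEVs replicate 1 was the lowest of the 6 libraries and the other lEVs libraries the highest. In CPM with TMM factors the order was different: the 3 sEVs libraries (5376 ± 236 CPM) stood above the 3 lEVs libraries (4722 ± 346 CPM; n = 3 each). The lowest sEVs and the highest lEVs library were close, at 5137 and 4954 CPM, on 572 and 480 counts. No interval was computed for CPM with TMM factors, so their order is not taken as resolved.

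**Figure D1:**
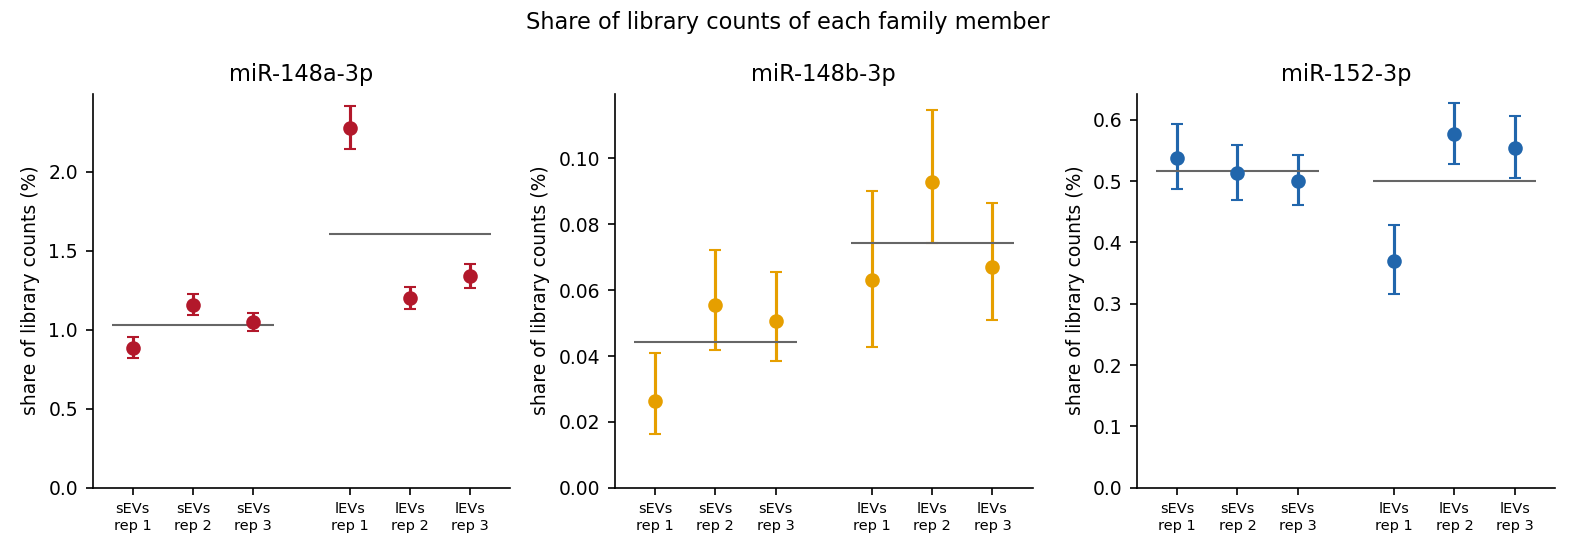
Share of library counts (%) of each member in the 3 sEVs and 3 lEVs libraries; points are libraries, bars are exact 95% Clopper-Pearson intervals and grey lines are means over 3 libraries. For miR-148a-3p lEVs replicate 1 (2.28%) stands above all other libraries, and for miR-152-3p it is the lowest (0.369%).

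The contrast of the design asks whether the family differs in abundance between small and large vesicles. It is not the contrast that chose the members, but it shares the lEVs libraries with it. None of the 3 members differed at an adjusted p under 0.05, where 25 of the 145 microRNAs tested, or 17.2%, did (quasi-likelihood test of edgeR, p adjusted by Benjamini-Hochberg). The log2 fold change, sEVs over lEVs, was -0.59 for miR-148a-3p (SE 0.35; adjusted p = 0.231 in edgeR) and -0.59 for miR-148b-3p (SE 0.27; adjusted p = 0.143 in edgeR). For miR-152-3p it was 0.18 (SE 0.12; edgeR adjusted p = 0.293). The estimates of miR-148a-3p and miR-148b-3p correspond to levels 1.51-fold higher in lEVs, and that of miR-152-3p to a level 1.13-fold higher in sEVs, each with an error that leaves the size uncertain. With library totals the log2 fold change of miR-152-3p was 0.04 (SE 0.19; adjusted p = 0.911 in edgeR). Groups that did not overlap were common among the tested microRNAs: 44.1% of them in CPM with TMM factors, miR-148b-3p and miR-152-3p included, and 45.5% by shares of library totals, miR-148a-3p and miR-148b-3p included. Fewer vesicles of a kind and fewer copies per vesicle cannot be told apart in such libraries.

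With TMM factors the fold change of miR-148a-3p rested on lEVs replicate 1. Without it the log2 fold change was -0.05 (SE 0.12; edgeR adjusted p = 0.771). The value of miR-148b-3p moved little, to -0.58 (SE 0.24; edgeR adjusted p = 0.0750), and that of miR-152-3p was 0.12 (SE 0.12; edgeR adjusted p = 0.517). No member was called without lEVs replicate 1 either, where 34.4% of 151 tested microRNAs were. These fits without lEVs replicate 1 used TMM factors, and none was run with library totals. By shares of library totals miR-148a-3p in lEVs replicates 2 and 3 (1.20% and 1.34%) was still above its highest sEVs library (1.16%). For miR-148b-3p the library that moved the estimate most was sEVs replicate 1, its lowest, without which the log2 fold change was -0.33 (edgeR adjusted p = 0.308). miR-148a-3p was called in a single alternative, with no filter on low counts (log2 fold change -0.60; edgeR adjusted p = 0.00529), where 16.2% of 327 microRNAs were called. Scaling by library totals gave a median log2 fold change of all tested microRNAs of -0.19, against -0.04 with TMM. Relative to these medians, with TMM and with library totals, the members stood at -0.56 and -0.45 (miR-148a-3p), -0.56 and -0.56 (miR-148b-3p) and 0.22 and 0.23 (miR-152-3p).

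**Figure D2:**
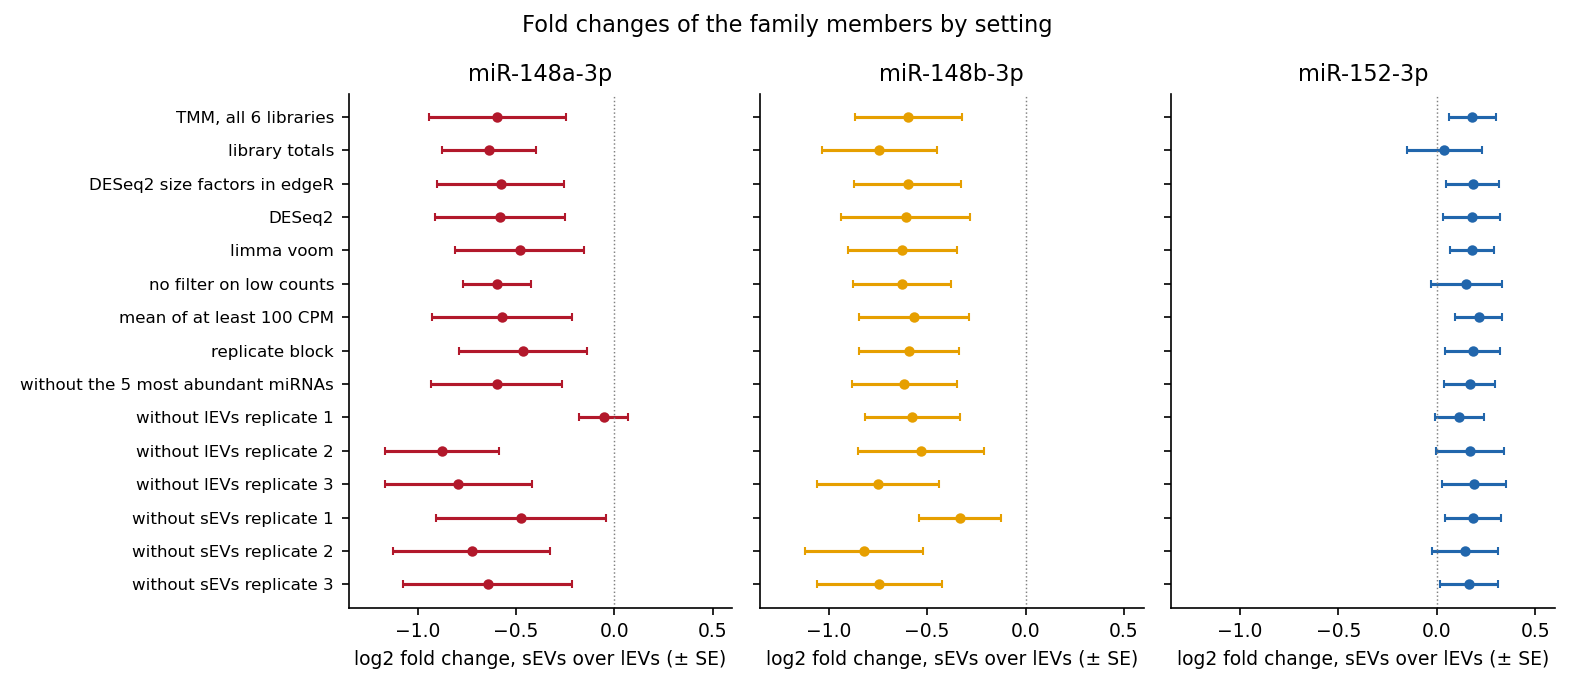
Log2 fold change, sEVs over lEVs, of each member under the settings named at the left; points are estimates and bars are ± 1 SE. All estimates of miR-148a-3p and miR-148b-3p are below 0 and all of miR-152-3p above 0, and the estimate of miR-148a-3p is nearest to 0 (-0.05) without lEVs replicate 1.

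Taken as a whole, the family held 1.45%, 1.73% and 1.60% of all counts in sEVs, against 2.71%, 1.87% and 1.96% in lEVs. The means were 1.59% ± 0.138 in sEVs, against 2.18% ± 0.462 in lEVs (n = 3 each). By shares all 3 lEVs libraries were above all 3 sEVs libraries, where 45.5% of single tested microRNAs did not overlap either. In CPM with TMM factors the fractions overlapped, at 15129, 18133 and 16416 CPM in sEVs, against 31782, 15864 and 17526 CPM in lEVs. The difference in share, sEVs minus lEVs, was -0.59 percentage points, and -0.323 without lEVs replicate 1. This sum follows miR-148a-3p, its largest part, and has no test of its own.

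The make-up of the family does not depend on the scaling of the libraries, because both counts of a ratio come from the same library. miR-148a-3p took 61.1% (58.1 to 64.0), 67.1% (64.8 to 69.3) and 65.5% (63.3 to 67.7) of the family counts in sEVs. In lEVs it took 84.1% (81.9 to 86.0), 64.2% (61.9 to 66.5) and 68.3% (66.0 to 70.5). In 5 of the 6 libraries its share thus lay between 61.1% and 68.3%, and lEVs replicate 1 was outside that range by more than its counting interval. miR-152-3p took 37.1%, 29.7% and 31.3% in sEVs, and 13.6%, 30.8% and 28.3% in lEVs. miR-148b-3p took 1.83%, 3.21% and 3.17% in sEVs and 2.33%, 4.97% and 3.42% in lEVs. The ratio of miR-148a-3p to miR-152-3p counts was 1.65, 2.26 and 2.09 in sEVs and 6.18, 2.08 and 2.42 in lEVs. For miR-148a-3p to miR-148b-3p it was 33.5, 20.9 and 20.7 in sEVs and 36.0, 12.9 and 20 in lEVs. In this second ratio sEVs replicate 1 was nearly as high as lEVs replicate 1, with only 20 counts of miR-148b-3p behind it. The ratio of miR-152-3p to miR-148b-3p was 20.3, 9.25 and 9.86 in sEVs and 5.83, 6.20 and 8.28 in lEVs. Here lEVs replicate 1 stood with the other lEVs libraries, and the 3 sEVs libraries were above the 3 lEVs libraries. The lowest sEVs and the highest lEVs ratio rested on 55 and 58 counts of miR-148b-3p. No interval was computed for this ratio, so their order is not taken as resolved.

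**Figure D3:**
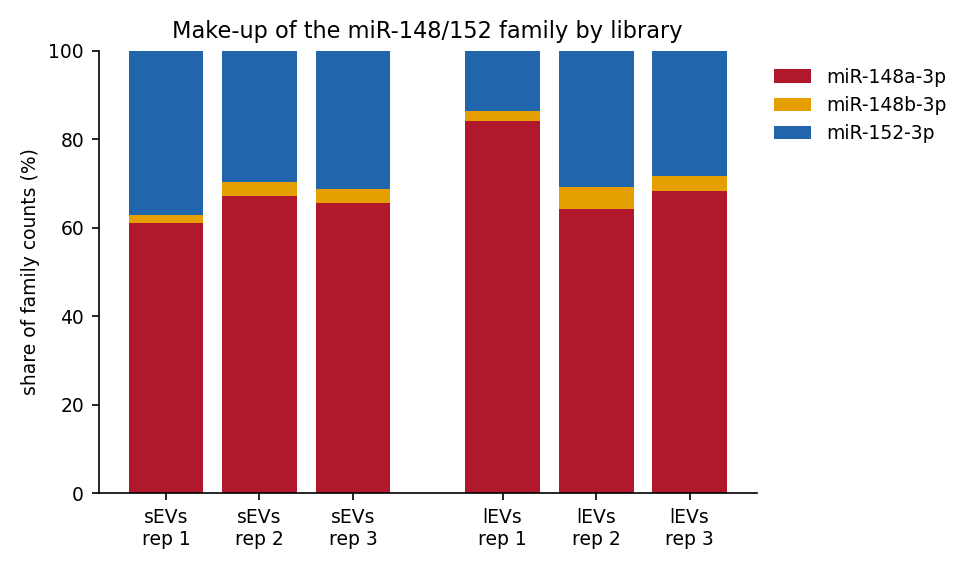
Share of family counts (%) taken by each of the 3 members in each library of sEVs and lEVs. In lEVs replicate 1 miR-148a-3p takes 84.1% and miR-152-3p 13.6%; in the other 5 libraries miR-148a-3p takes between 61.1% and 68.3%.

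The gap of lEVs replicate 1 was taken as its log2 CPM (TMM factors) minus the mean of lEVs replicates 2 and 3. It was 1.27 for miR-148a-3p, which was 2.42-fold higher in lEVs replicate 1 (26716 CPM) than in lEVs replicates 2 and 3 (10188 and 11973 CPM). For miR-148b-3p the gap was 0.11, with 741 CPM in lEVs replicate 1 and 789 and 599 CPM in the others. For miR-152-3p it was -0.19, with 4325 CPM in lEVs replicate 1 and 4887 and 4954 CPM in the others. Of the 3 guide strands of this seed, then, miR-148a-3p set lEVs replicate 1 apart, miR-148b-3p was between the other lEVs libraries, and miR-152-3p was slightly below both. Counted from the highest gap of the 145 tested microRNAs, miR-148a-3p had rank 6, miR-148b-3p rank 72 and miR-152-3p rank 101.

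These gaps shift with the scaling, because the TMM factor of lEVs replicate 1 was 0.853, against 1.18 and 1.12 for lEVs replicates 2 and 3. With library totals the gaps were 0.84 for miR-148a-3p, -0.31 for miR-148b-3p and -0.61 for miR-152-3p, and the median gap of all tested microRNAs was -0.31, against 0.10 with TMM factors. The sign of the small gap of miR-148b-3p turned with it. Relative to the median, with TMM and with library totals, the gap of miR-148a-3p was 1.17 and 1.16 and that of miR-152-3p was -0.29 and -0.30. That of miR-148b-3p was 0.0058 and 0.0034, close to the median with both scalings. It rested on 30 counts in lEVs replicate 1. Against a single other lEVs library, with TMM factors, the gap of miR-148b-3p was -0.086 or 0.30. lEVs replicate 1 was also the library with the fewest counts, and the part of its depth in the gap was not tested.

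The same distance was computed for each library from the other libraries of its fraction. For miR-148a-3p it was -0.31, 0.29 and 0.02 in sEVs, and -0.81 and -0.46 in lEVs replicates 2 and 3, whose comparison includes lEVs replicate 1. For miR-152-3p no library was more than 0.19 away. For miR-148b-3p the largest distance was in sEVs replicate 1, at -0.94. lEVs replicate 1 stood apart for many microRNAs: 25 of the 145 were more than 1 log2 unit from the other lEVs libraries, against 3 to 8 in each of the other 5 libraries.

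**Figure D4:**
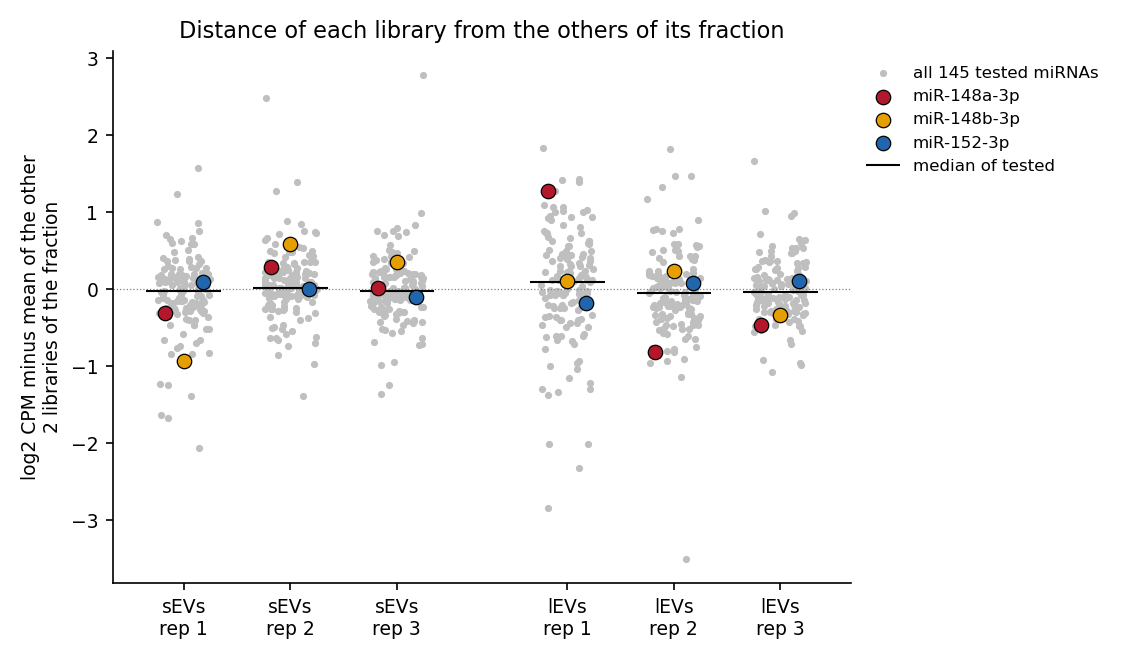
Log2 CPM (TMM factors) of each library minus the mean of the other 2 libraries of its fraction; grey points are the 145 tested microRNAs, black lines their medians and coloured points the 3 members. In lEVs replicate 1 miR-148a-3p lies at 1.27, near the top of the grey points, while miR-148b-3p (0.11) and miR-152-3p (-0.19) lie near the median.

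Across the 6 libraries the members did not share a pattern. Pearson's r of log2 CPM (TMM factors) was 0.51 between miR-148a-3p and miR-148b-3p, -0.84 between miR-148a-3p and miR-152-3p and -0.76 between miR-148b-3p and miR-152-3p. With 6 points that share their library totals and scaling factors, these values are descriptions. They hold for TMM factors only, and r by shares of library totals was not computed. By shares miR-148b-3p and miR-152-3p were both highest in lEVs replicate 2, at 0.0930% and 0.576%. The value of -0.76 is therefore not taken as independent of the scaling. The value of -0.84 includes lEVs replicate 1, where miR-148a-3p was at its highest and miR-152-3p at its lowest. There they stood at 1.09 and -0.22 log2 units from their means over the 6 libraries. For the pairs of members, r without that library was not computed, so -0.84 is not taken to describe the other libraries. Among 142 other tested microRNAs of at least 100 CPM on average, those most like miR-148a-3p were miR-196a-5p (r = 0.99), miR-196b-5p (r = 0.98) and the joined row miR-486a-5p/486b-5p (r = 0.98). miR-196a and miR-196b are encoded in the Hox clusters, and miR-486a is abundant in red cells and muscle. All 3 were also high in lEVs replicate 1, with gaps of 1.29, 0.94 and 0.95. This largely follows from choosing them by r over libraries that include it, so it is no separate result. Without that library, over 5 points, r was 0.80, 0.88 and 0.81. Spearman's rho over the 6 libraries was 0.89, 0.89 and 0.77, and r without the 2 libraries farthest from the median of miR-148a-3p was 0.66, 0.94 and 0.93.

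Most like miR-148b-3p were miR-106b-3p (r = 0.98), miR-99b-3p (r = 0.91) and miR-378a-5p (r = 0.90), all of low abundance, with means of 128, 141 and 111 CPM. Spearman's rho was 0.94, 0.94 and 0.77 for these. In sEVs replicate 1 miR-106b-3p and miR-378a-5p were listed at 0, so their r depends on the prior count too. Most like miR-152-3p were miR-203-3p (r = 0.97), a microRNA of skin epithelium, miR-190a-5p (r = 0.92) and miR-22-3p (r = 0.91), with Spearman's rho of 0.94, 0.77 and 0.89. In lEVs replicate 1 miR-203-3p and miR-22-3p had gaps of -0.96 and -0.65, on 5 and 11 counts. miR-190a-5p was listed at 0 there, against 10 and 5 counts in lEVs replicates 2 and 3, so its distance and its r depend on the prior count of 2 and no gap is given. Of the 9 microRNAs named for likeness, miR-22-3p differed between the fractions, with a log2 fold change of 1.32 towards sEVs (SE 0.20; adjusted p = 0.00268 in edgeR).

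**Figure D5:**
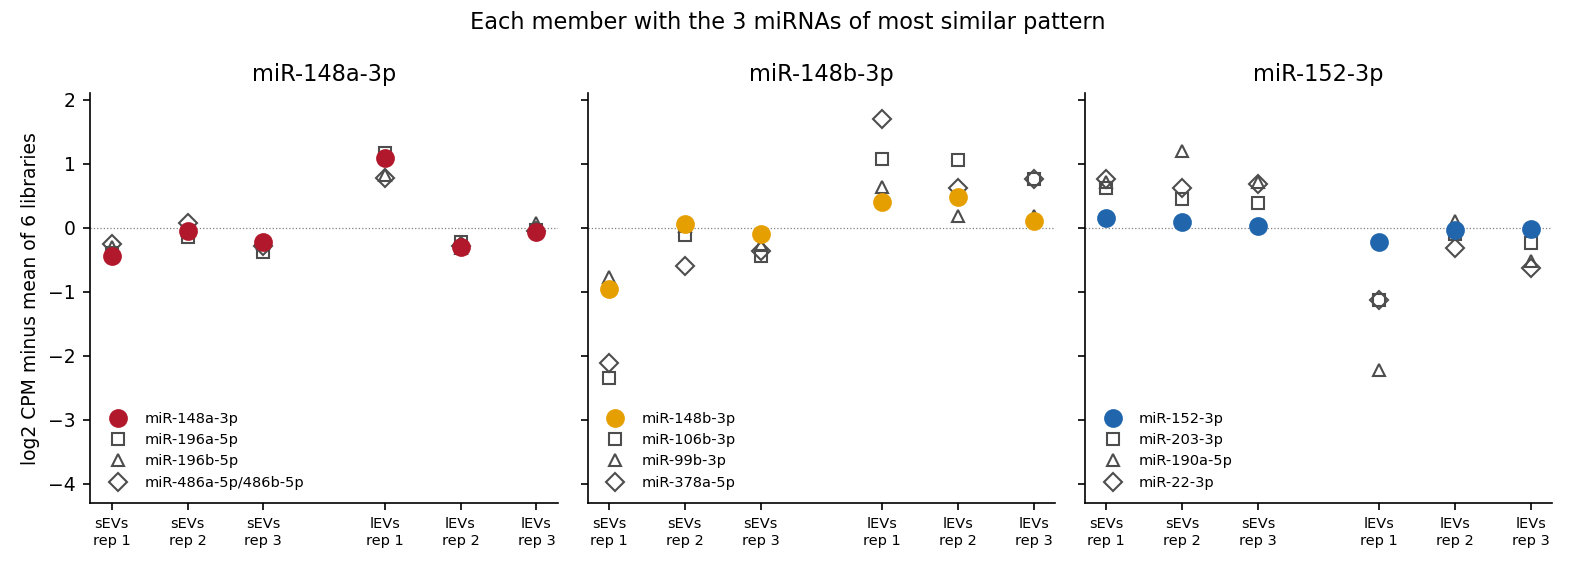
Log2 CPM (TMM factors) minus the mean of the 6 libraries for each member (filled) and the 3 microRNAs most like it by Pearson's r (open). miR-148a-3p and its 3 nearest are highest in lEVs replicate 1, and miR-152-3p and its 3 nearest are lowest there. The nearest were chosen by r over these same libraries, so their likeness there is no separate result. Points of libraries listed at 0 (miR-190a-5p in lEVs replicate 1, miR-106b-3p and miR-378a-5p in sEVs replicate 1) are placed by the prior count of 2.

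Of the 4 listed members of the miR-130 and miR-301 family, 2 could be tested. miR-130a-3p had 23, 20 and 40 counts in sEVs, against 10, 33 and 33 in lEVs (log2 fold change -0.04; SE 0.26; adjusted p = 0.912 in edgeR). miR-301a-3p had 12, 7 and 13 counts in sEVs and 4, 16 and 9 in lEVs (log2 fold change -0.01; SE 0.40; edgeR adjusted p = 0.981). In lEVs replicate 1 their gaps were -0.35 and -0.20, on 10 and 4 counts. Of the members not tested, miR-130b-3p had 5, 0 and 0 counts in sEVs, against 0, 5 and 0 in lEVs, and miR-301b-3p had 0 in all sEVs libraries, against 3, 2 and 0 in lEVs. miR-301b-3p was thus highest in lEVs replicate 1, on counts too low to set a gap.

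Other microRNAs known to silence DNA methyltransferases were listed beside the family. Of 8 tested, miR-143-3p, which silences Dnmt3a, was higher in sEVs (33592 ± 3713 CPM in sEVs, against 21292 ± 3269 CPM in lEVs; n = 3 each; log2 fold change 0.65; edgeR adjusted p = 0.0231). miR-29a-3p, a regulator of Dnmt3a, Dnmt3b and collagens, was higher in lEVs (5506 ± 657 CPM in sEVs, against 11494 ± 2405 CPM in lEVs; log2 fold change -1.06; edgeR adjusted p = 0.00447), and 6 did not pass. The call of miR-143-3p was lost when lEVs replicate 3, sEVs replicate 2 or sEVs replicate 3 was left out (edgeR adjusted p = 0.102, 0.125 and 0.120) and with library totals (0.109). These are 2 of 8 called, beside 17.2% of all tested microRNAs. The median log2 fold change of the list was -0.01, beside -0.04 for all tested microRNAs. Of 9 tested osteoclast-associated microRNAs, miR-29a-3p again was higher in lEVs and 8 did not pass, which is 1 of 9 called beside the same 17.2%. Log2 fold changes were below 0 for 6 of the 9, with a median of -0.31. The 3 most abundant members were above 0, miR-223-3p at 0.04, miR-26a-5p at 0.41 and miR-21a-5p at 0.29 (edgeR adjusted p = 0.783, 0.0537 and 0.367).

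Markers of cell types that bone vesicles could come from were set beside the gap of lEVs replicate 1. Among all 145 tested microRNAs 79 had a gap above 0 with TMM factors and 42 with library totals, with median gaps of 0.10 and -0.31. Of the 4 cartilage microRNAs, 4 had a gap above 0 with TMM factors (median 0.65) and 3 with library totals (median 0.26). Both arms of miR-455 had few counts there, 4 for miR-455-3p and 6 for miR-455-5p, and their shares were below those of lEVs replicate 2. The summed share of the list, nearly all of it miR-140-3p, was 2.05% in lEVs replicate 1, 1.44% and 1.45% in lEVs replicates 2 and 3 and between 1.12% and 1.20% in sEVs. The gap was 0.94 for miR-140-3p, the defining microRNA of cartilage, and 1.01 for its partner arm miR-140-5p. The red cell list was split, with a gap of 0.95 for miR-486a-5p/486b-5p and -0.72 for miR-451a, the defining red cell microRNA; its summed share was 0.746% in lEVs replicate 1, 0.544% and 0.588% in the other lEVs libraries and between 0.438% and 0.568% in sEVs. The 3 skeletal muscle microRNAs were split too, with a median gap of -0.61 and 1 of 3 above 0. Their gaps were 1.07 for miR-206-3p, -0.61 for miR-1a-3p and -0.93 for the joined row miR-133a-3p/133b-3p. With TMM factors, median gaps were -0.24 for the myeloid list (1 of 6 above 0), -0.07 for the lymphoid list (1 of 3), -0.10 for the endothelial list (1 of 2) and -0.26 for the mesenchymal list (2 of 6). With library totals 0 members of these 4 lists were above 0. In the liver, gut and epithelial list 0 of 3 tested members were above 0, and miR-122-5p, the defining microRNA of liver, was listed at 0 in all 6 libraries, as were miR-215-5p, miR-200b-3p, miR-429-3p and miR-375-3p. The part of cartilage or other cell types in the gap of miR-148a-3p was not tested.

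Between the fractions, 2 of the 29 tested members of the cell type lists were called, beside 17.2% of all tested microRNAs; the difference was not tested. miR-150-5p of the lymphoid list and miR-143-3p of the mesenchymal list were higher in sEVs, with 1 of 3 and 1 of 6 tested members called. None of the tested members of the red cell (2), myeloid (6), skeletal muscle (3), endothelial (2), cartilage (4) and liver, gut and epithelial (3) lists passed. Median log2 fold changes ran from -0.67 in the skeletal muscle list to 0.37 in the liver, gut and epithelial list.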

How the data were processed

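The values are raw counts of each mature microRNA, as deposited by the authors without normalization, from QIAseq libraries sequenced on a MiSeq, per the labels' protocols. Per the submitters' processing notes, the build was GRCm38, with R 4.2.2 and DESeq2 1.38.2. No source used here names the aligner or tells if reads or molecular identifiers were counted. The table held 0 values of 1 and 77 of 2, so single counts may have been set to 0, and zeros were given no upper limit.

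Groups came from the sample titles. All microRNAs were fitted by the quasi-likelihood test of edgeR 4.0.16 under R 4.3.3 (TMM; filterByExpr with at least 10 counts and a total of 15), with Benjamini-Hochberg adjustment over the 145 tested and calls at 0.05; the fit was checked on simulated data. Standard errors are the absolute log2 fold change over the square root of F. Log2 CPM used a prior count of 2. Within a fraction, chi-square per degree of freedom between libraries was 2.35 to 23.7, so none were near-duplicates. Alternatives were DESeq2 1.42.0, limma 3.58.1 (voom), DESeq2 size factors, library totals, no filter, a mean of at least 100 CPM, a replicate block, leaving out the 5 most abundant microRNAs, a prior count of 0.5, and leaving out each library. The text names the members, their 5p arms, the miR-130 and miR-301 family, the 3 microRNAs most like each member, and at most the 3 most abundant tested microRNAs in each list, beside those listed at 0. Members and lists were chosen with earlier results of these data known. Hairpins and host genes came from GENCODE M21 and RefSeq, in which all 3 members were matched.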

Additional observations from a re-analysis of the deposited data

How the results depend on the processing

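In 14 alternative fits per member, 42 in all, every log2 fold change kept its direction, and 1 was called: miR-148a-3p with no filter on low counts (log2 fold change -0.60). The number of microRNAs called was 25; it was 53 with no filter and 16 to 52 when a library was left out, the lowest without lEVs replicate 3 and the highest without lEVs replicate 1. The gap of lEVs replicate 1 for miR-148b-3p turned to -0.31 with library totals and ran from -0.086 to 0.30 against a single other lEVs library; with library totals that of miR-152-3p was -0.61. The family share, sEVs minus lEVs, was -0.59 percentage points, -0.743 to -0.323 when a library was left out (the smallest without lEVs replicate 1), and -1.16 when the 5 most abundant microRNAs were left out of the totals, which makes every share larger. The deviations of same-numbered libraries correlated at r = -0.04, 0.02 and 0.35, and 2 of 6 libraries correlated best with their own number. With 3 libraries per fraction these values cannot decide whether the numbers pair the libraries. With a replicate block 26 microRNAs were called, no member among them. Depth limits miR-148b-3p most, at 20 to 86 counts a library. miR-148a-3p and miR-152-3p had at least 175 counts in every library.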
